A study of Mus musculus with 6 samples.

Results

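The genes described here are the amino acid transporter genes of 7 solute carrier (Slc) families. They are the rows of the deposited count table that are annotated as protein coding and whose symbol starts with Slc1a, Slc3a, Slc6a, Slc7a, Slc36a, Slc38a or Slc43a and a number. This rule, which uses names and annotation and no measured value, found 64 of the 55487 deposited genes. Of the 64, 23 had enough reads to be tested, 23 had between 1 and 34 reads over all libraries and were not tested, and 18 had no read in any library. Slc7a6os is a member by its symbol but encodes no transporter: it is named for its position opposite Slc7a6. Slc43a3, Slc6a6 and Slc6a8 encode transporters, of purine nucleobases, taurine and creatine respectively, rather than of the amino acids used in protein synthesis.

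The libraries are RNA-seq of live lymphocytes sorted from the epithelial area of the small intestine of C57BL/6J mice. All mice were wild type. The series title names an RXR agonist, but no library is labelled as treated, and neither age nor sex is stated in the labels. Every sorted cell carried CD3ε, a signalling subunit of the T cell receptor, and CD45, a phosphatase of leukocytes. The groups differ in B220, a long CD45 isoform that B cells carry: 3 libraries are of B220− cells, labelled T cells, and 3 of B220+ cells, labelled X cells. Whether each library came from a different mouse is not stated, and the p-values measure only the spread between these libraries, which may be technical. Each library pools many cells, so fewer cells with a transcript and less of it per cell cannot be told apart.

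Amino acids are polar and cross membranes mainly through carriers. T cells raise uptake of glutamine, leucine and other amino acids when they are stimulated, because protein synthesis and the growth kinase mTORC1 depend on them. Some carriers work alone, such as the cationic amino acid transporter Slc7a1. Others are light chains of the Slc7a family that reach the surface only when linked to a heavy chain of the Slc3a family. Members of the Slc36a and Slc38a families also move amino acids across the lysosomal membrane, where mTORC1 senses them.

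Total counts lay between 11320363 and 39591312 per library, with the deepest library being B220+ replicate 2. Members took 0.220% to 0.249% of all counts. The T cell gene Cd3e stood at 1214 and 1361 CPM (normalised read counts scaled to a common library size) on average in B220− and B220+ libraries, and of the 8 T cell markers 0 were called higher by edgeR and 2 lower, Cd247 and Cd2 (5 had an unadjusted p under 0.05, and DESeq2 and the replicate block each called 1 higher, Zap70). Of the B cell markers, Ms4a1 had 3 reads over all 6 libraries, 1 of 4 tested was called, Blk, which was lower in B220+ cells, and the list summed to 27.3 to 37.0 CPM in B220− and 32.6 to 36.4 CPM in B220+ libraries, mostly from Cd79b. Of the plasma cell markers, Mzb1 had no read, 1 of 4 tested was called, Sdc1, also lower, and the list summed to 133 to 239 and 140 to 176 CPM, mostly from Xbp1. Of the conventional T cell markers, 12 of 13 tested genes were called lower in B220+ cells, Tcf7 being the exception, and the list had a summed level of 1719 to 2593 CPM in B220− and 436 to 529 CPM in B220+ libraries. Epithelial markers summed to 320 to 387 CPM in B220− and 346 to 397 CPM in B220+ libraries, mostly from Cdh1 and Epcam, and 0 of their 16 tested genes were called by edgeR (2, Epcam and Muc2, had an unadjusted p under 0.05, and DESeq2 called 1, Epcam, higher in B220+ cells). Muc2 and Olfm4, 2 of the 16, were called lower with the replicate block. The macrophage and dendritic cell markers summed to 256 to 329 and 389 to 537 CPM, mostly from Itgax, but 1 of 6 tested was called, Lyz2, which was lower in B220+ cells. The mast cell markers summed to 50.4 to 109 and 202 to 317 CPM, mostly from Kit, and 1 of 3 tested was called, Mcpt1, also lower. DESeq2 called 2 macrophage and dendritic cell markers higher and 1 lower, and 1 mast cell marker higher and 2 lower. Itgax and Kit were called higher with the replicate block (adjusted p = 1.99e-06 and 4.12e-07, against 0.0554 and 0.0543 without it). The part of these lists in the differences of the members was not tested. Over all genes tested, edgeR called 11.1%, or 17.5% with the replicate block.

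Differences between the groups passed the test in 6 members, none of them among the 10 with the highest level per kilobase of exon. With edgeR's quasi-likelihood test and a Benjamini-Hochberg adjusted p under 0.05, 3 of 23 tested members were higher in B220+ cells (Slc38a8, Slc7a1 and Slc36a4) and 3 were lower (Slc43a1, Slc6a8 and Slc43a2). Among all 14722 genes tested, 11.1% were called, 5.58% higher and 5.56% lower, against 26.1% of the tested members. All B220+ libraries were above all B220− libraries in 6 members and below them in 3, against 14.1% and 13.9% of all genes tested. The median log2 fold change, B220+ minus B220−, was 0.058 over the 23 members and −0.0074 over all genes tested. Reads of all members together came to 2315 ± 78.2 CPM (mean ± SD, n = 3) in B220− and 2399 ± 81.4 CPM in B220+ cells. With the replicate number of the titles as a block, Slc43a3 was called lower too, so that 3 members were higher and 4 lower, against 17.5% of all genes called, 8.85% higher and 8.6% lower.

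**Figure D1:**
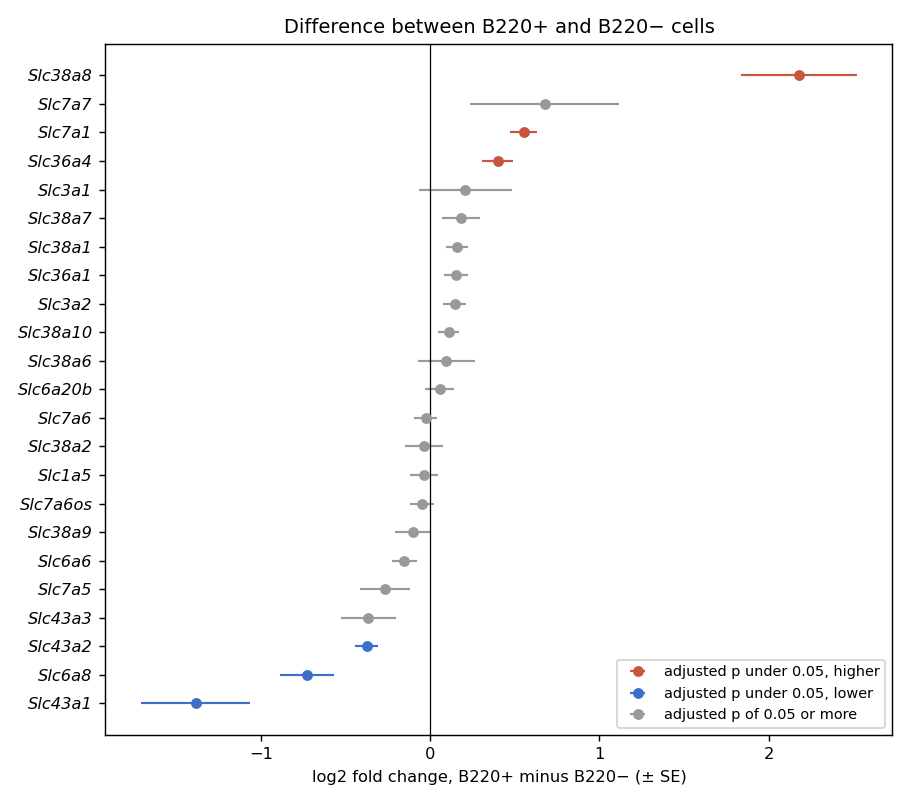
Difference between the groups for the 23 tested members, as log2 fold change of B220+ minus B220− cells with its standard error on the x axis. Slc38a8 lies farthest to the right at 2.18 and Slc43a1 farthest to the left at −1.39, and 17 members in grey did not pass the test.

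A promoter sequence is shown for Slc7a1. It was the called member with a motif that was searched for in a window before a start shared by RefSeq and GENCODE. The stretch is the 100 bases just before a RefSeq transcript start (GRCm38.p6), 5′ to 3′ on the gene's strand, at chr5:148399905-148400004 (minus strand). Capitals mark a match, on the opposite strand, to TGACNNNGC, the core of the antioxidant response element.
Slc7a1: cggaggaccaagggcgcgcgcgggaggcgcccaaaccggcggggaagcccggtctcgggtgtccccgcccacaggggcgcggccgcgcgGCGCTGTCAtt
The search covered both strands of windows of 250 bases before to 50 after each start. These were found for 46 of the 64 members (67 windows), and for 17 of the 23 tested members (24 windows). TGACNNNGC stood in 6 of the 24 windows of tested members and in 12.4% of all 32851 windows, and CACGTG, the E-box, in 3 of the 24 and in 7.15% of all. The window of Slc43a1 held both, but its RefSeq start lies inside the gene's GENCODE span and matched no GENCODE transcript start. The core of the amino acid response element bound by ATF4, TGATGNAA, stood in 2 of the 24, both of Slc7a7, and in 3.97% of all windows. Slc7a11, Slc1a4 and Slc6a21, which were not tested, held this core too. Another Slc7a1 start that GENCODE shares, at chr5:148392815, had none of the 3 cores in the 100 bases before it. The windows of Slc38a8, Slc43a2 and Slc36a4 held none of the 3 cores, and no window of Slc6a8 was matched. A match describes these letters only.

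The heavy chains come first. Slc3a2 encodes CD98, the partner of most Slc7a light chains (ENSMUSG00000010095, mm10 chromosome 19, 8706882 to 8723369). It stood at 398.9, 430.2 and 432.4 CPM in B220− replicates 1, 2 and 3 and at 475.5, 441.9 and 478 CPM in B220+ replicates 1, 2 and 3. All 3 B220+ libraries were above every B220− library, by a narrow margin, and the difference did not pass the test (log2 fold change 0.15, SE 0.068, edgeR adjusted p = 0.233). Across all genes tested, the groups did not overlap in 28.1%. Per kilobase of exon, Slc3a2 had the highest level of the 23 members in both groups. The other heavy chain, Slc3a1 (rBAT), pairs with Slc7a9 to carry cystine and basic amino acids in kidney and gut epithelium. It stood at 3.60 ± 1.25 and 4.08 ± 0.677 CPM (edgeR adjusted p = 0.741). Its exons share 601 bases with Prepl on the opposite strand, which had 2796 reads against 450 of Slc3a1. Whether counting used strand is not given in the sources used here, so these reads cannot be told apart.

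Of the light chains of CD98, Slc7a6 and Slc7a5 were the ones clearly present. Slc7a5 (LAT1) imports leucine and other large neutral amino acids in exchange for glutamine. It stood at 29.8, 30.5 and 34.9 CPM in the B220− libraries and at 19.3, 28.8 and 30.1 CPM in the B220+ libraries. B220+ replicate 1 was the lowest of the 6 and the groups overlapped (log2 fold change −0.27, SE 0.15, edgeR adjusted p = 0.342). Each B220+ library was below the B220− library of the same replicate number. With the replicate block the edgeR adjusted p of Slc7a5 was 0.0563, which did not pass. Slc7a6 (y+LAT2), which exchanges arginine for glutamine, varied little, from 45.8 to 48.5 CPM over all 6 libraries (edgeR adjusted p = 0.883). Slc7a7 (y+LAT1) was low, at 0.828 ± 0.343 and 1.34 ± 0.579 CPM, with overlapping groups (edgeR adjusted p = 0.419). Its exons share 232 bases with Oxa1l on the opposite strand, which had 7276 reads against 137 of Slc7a7. The remaining partners of CD98 were scarce. Slc7a8 (LAT2) had 19 reads over all libraries, Slc7a10 had 3, and Slc7a11 (xCT), which imports cystine for glutathione synthesis, had a single read in B220− replicate 1. Slc7a9 and Slc7a13, the partners of Slc3a1, had 5 reads and none. Slc7a6os, no transporter, stood at 62.9 ± 1.97 and 61 ± 2.97 CPM (edgeR adjusted p = 0.776).

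Slc7a1 (CAT1), which carries arginine, lysine and ornithine without a heavy chain, was the member with the smallest adjusted p (ENSMUSG00000041313, mm10 chromosome 5, 148327410 to 148399904, minus strand). It stood at 48.4, 48.3 and 46.9 CPM in B220− replicates 1, 2 and 3 and at 67.7, 77.4 and 65.1 CPM in B220+ replicates 1, 2 and 3. The B220− libraries lay close together and every B220+ library was above them. Slc7a1 rose 1.47-fold (log2 fold change 0.55, SE 0.080, edgeR adjusted p = 6.53e-04), and the edgeR adjusted p stayed between 6.73e-04 and 0.00767 when any 1 library was left out. The other cationic carriers were nearly absent, with 3 reads of Slc7a2 and 16 of Slc7a3 over the 6 libraries. Of the other Slc7a members, Slc7a4, Slc7a14 and Slc7a15 had 23, 0 and 4 reads, and Slc7a12 had none.

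The 3 members of the Slc43a family all had negative fold changes. Slc43a2 (LAT4) carries leucine, phenylalanine and similar amino acids by facilitated diffusion (ENSMUSG00000038178, mm10 chromosome 11, 75531694 to 75577575, plus strand). It stood at 69.3, 65.4 and 69 CPM in the B220− libraries and at 51.9, 53.4 and 51.6 CPM in the B220+ libraries. The groups were far apart relative to their spread. Slc43a2 fell 1.30-fold (log2 fold change −0.37, SE 0.069, edgeR adjusted p = 0.00328, at most 0.0211 with 1 library left out). An antisense gene, Gm45606, shares 922 bases of its exons, had 28.2% as many reads and a log2 fold change of −0.36 (edgeR adjusted p = 0.0551), and the reads of this overlap may belong to either gene.

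Slc43a1 (LAT3), a related facilitated carrier of branched-chain amino acids (ENSMUSG00000027075, mm10 chromosome 2, 84838850 to 84863594, plus strand), was low in both groups. It stood at 3.88, 2.27 and 2.71 CPM in the B220− libraries and at 1.44, 1.03 and 0.990 CPM in the B220+ libraries. Every B220+ library was below every B220− library. Slc43a1 fell 2.61-fold (log2 fold change −1.39, SE 0.32, edgeR adjusted p = 0.0138). This rests on 143 and 72 reads over the 2 groups, and the edgeR adjusted p was 0.0792 without B220− replicate 1, 0.0823 without B220+ replicate 2 and 0.0581 without B220+ replicate 3. Slc43a3, the nucleobase carrier next to it on chromosome 2, stood at 30.5, 22.7 and 24.7 CPM in the B220− and 25.6, 18 and 17.6 CPM in the B220+ libraries. In both groups replicate 1 was the highest, and the groups overlapped (log2 fold change −0.36, SE 0.16, edgeR adjusted p = 0.212). With the replicate block its adjusted p was 0.0141, without B220+ replicate 1 it was 0.0317, and with no filter on low counts it was 0.0209.

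**Figure D2:**
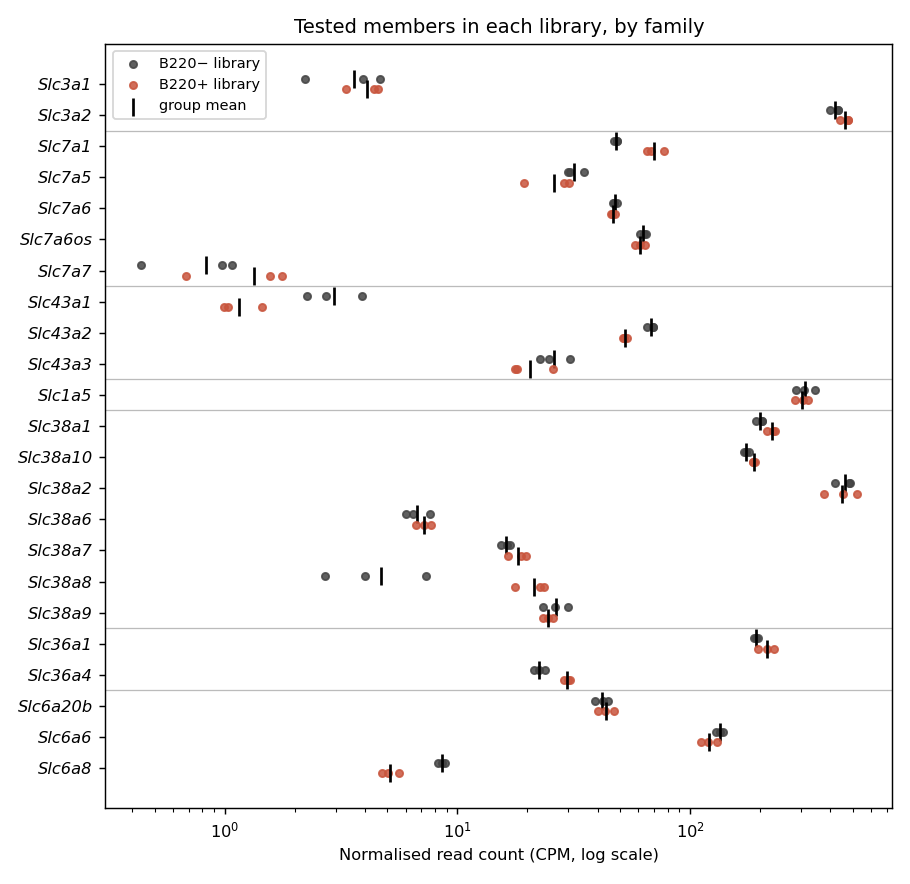
Normalised counts (CPM, log scale) of the 23 tested members in each of the 6 libraries, grouped by family, with B220− libraries in grey, B220+ libraries in red and vertical bars at group means. Slc38a8, Slc7a1, Slc36a4, Slc43a1, Slc43a2 and Slc6a8 show separated groups. So do Slc3a2, Slc38a1 and Slc38a10, which did not pass the test, whereas Slc7a6 and Slc1a5 overlap.

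The glutamine carriers Slc1a5 and Slc38a2 had the second and the third highest level per kilobase, and neither passed the test. Slc1a5 (ASCT2), a sodium-dependent exchanger of glutamine, alanine, serine and cysteine, stood at 284, 308 and 344 CPM in the B220− and 283, 322 and 306 CPM in the B220+ libraries (log2 fold change −0.037, SE 0.081, edgeR adjusted p = 0.857). Slc38a2 (SNAT2), which takes up glutamine and other small neutral amino acids with sodium and is a known target of the amino acid response, had the most reads of all members. It stood at 418, 483 and 485 CPM and at 377, 520 and 455 CPM, with B220+ libraries both below and above all B220− libraries (edgeR adjusted p = 0.904). Slc38a1 (SNAT1), a carrier of the same kind, stood at 204, 203 and 192 CPM and at 231, 227 and 214 CPM. Its groups did not overlap, but the difference did not pass (log2 fold change 0.16, SE 0.065, edgeR adjusted p = 0.151, and 0.0527 with the replicate block). Slc38a2, Slc3a2, Slc1a5 and Slc38a1 together held 60.3% of all member reads. The other Slc1a members had few reads: Slc1a4 (ASCT1) had 10, and the glutamate carriers Slc1a1, Slc1a2, Slc1a3, Slc1a6 and Slc1a7 had 1 to 7.

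Slc38a8, a sodium-coupled glutamine carrier best known from the retina, showed the largest fold change of the tested members (ENSMUSG00000034224, mm10 chromosome 8, 119479602 to 119501698, minus strand). It stood at 2.69, 7.31 and 4.02 CPM in B220− replicates 1, 2 and 3 and at 23.6, 22.7 and 17.6 CPM in B220+ replicates 1, 2 and 3. The lowest B220+ library was well above the highest B220− library, and the B220− libraries varied more among themselves in proportion. Slc38a8 rose 4.53-fold (log2 fold change 2.18, SE 0.34, edgeR adjusted p = 0.00924), on 225 and 1429 reads over the 2 groups. The edgeR adjusted p was 0.0552 without B220− replicate 3 and 1.93e-06 without B220− replicate 2, where the log2 fold change was 2.70. Per kilobase, Slc38a8 ranked 20th of the 23 members in B220− and 11th in B220+ cells.

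The genes beside Slc38a8 were also higher, by less. Mbtps1, which lies 6458 bases upstream on the same strand and encodes a protease of the Golgi, stood at 216 ± 15.2 and 259 ± 4.11 CPM (log2 fold change 0.26, edgeR adjusted p = 0.0274). Necab2, 6962 bases away on the opposite strand, stood at 1.69 ± 0.702 and 3.54 ± 0.492 CPM (log2 fold change 1.06, edgeR adjusted p = 0.0443). All 7 tested genes within 100 kb had positive fold changes, from 0.097 to 1.06, and 2 of them were called, against 11.1% of all genes tested. Some members that were not called had as many called neighbours: 2 of 4 for Slc3a1, 2 of 6 for Slc6a20b and 2 of 10 for Slc7a7. The called members Slc43a1, Slc43a2, Slc6a8 and Slc7a1 had 0, of 3, 10, 5 and 1 tested neighbours. For the called member Slc36a4, no gene within 100 kb was tested.

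Of the remaining Slc38a members, Slc38a9, the lysosomal arginine sensor that signals to mTORC1, stood at 26.5 ± 3.31 and 24.6 ± 1.16 CPM (edgeR adjusted p = 0.662). Slc38a7, which exports glutamine from lysosomes, stood at 16.2 ± 0.701 and 18.2 ± 1.62 CPM (edgeR adjusted p = 0.385). Slc38a10 stood at 174 ± 3.99 and 188 ± 2.06 CPM with groups that did not overlap (log2 fold change 0.11, edgeR adjusted p = 0.340), and Slc38a6 at 6.70 ± 0.858 and 7.16 ± 0.547 CPM (edgeR adjusted p = 0.812). Slc38a11 had 2 reads, and Slc38a3, Slc38a4 and Slc38a5 had none.

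In the Slc36a family, Slc36a4, a high-affinity carrier of proline and tryptophan, rose 1.32-fold (ENSMUSG00000043885, mm10 chromosome 9, 15709738 to 15743361, plus strand). It stood at 23.8, 22.4 and 21.2 CPM in the B220− and at 28.7, 30.4 and 29.9 CPM in the B220+ libraries. The groups were separated in all libraries (log2 fold change 0.40, SE 0.091, edgeR adjusted p = 0.0123). The adjusted p was 0.0574 without B220− replicate 3 and 0.0661 without B220+ replicate 2. Slc36a1 (PAT1), a lysosomal exporter of small neutral amino acids, had a higher level per kilobase and stood at 191, 188 and 197 CPM in the B220− and 231, 215 and 195 CPM in the B220+ libraries. B220+ replicate 3 fell within the B220− range, and the difference did not pass (log2 fold change 0.15, SE 0.072, edgeR adjusted p = 0.233). Slc36a2 and Slc36a3 had 3 and 25 reads.

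The Slc6a family, sodium- and chloride-dependent carriers that include neurotransmitter transporters, had the most undetected members. Slc6a8, which imports creatine, fell 1.66-fold (ENSMUSG00000019558, mm10 chromosome X, 73673150 to 73682502, plus strand). It stood at 8.24, 8.61 and 8.83 CPM in the B220− and at 5.01, 5.62 and 4.74 CPM in the B220+ libraries. The B220− libraries lay within a narrow range, above all B220+ libraries (log2 fold change −0.73, SE 0.16, edgeR adjusted p = 0.0104, at most 0.0475 with 1 library left out). Slc6a6, the taurine transporter, stood at 138, 134 and 129 CPM and at 112, 130 and 119 CPM, with overlapping groups (log2 fold change −0.15, edgeR adjusted p = 0.248). Slc6a20b, a relative of the proline carrier Slc6a20a, stood at 41.7 ± 2.66 and 43.5 ± 3.34 CPM (edgeR adjusted p = 0.771). Its exons share 1800 bases with Sacm1l on the opposite strand, which had 9443 reads against 4745, so its level is uncertain.

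The other 18 Slc6a members had too few reads for the main test. Slc6a19, the main neutral amino acid carrier of the intestinal brush border, had 10, 9 and 8 reads in the B220− and 3, 4 and 0 in the B220+ replicates 1, 2 and 3. Slc6a20a, Slc6a13, Slc6a9 (a glycine transporter), Slc6a4 (the serotonin transporter) and Slc6a16 had 15, 9, 7, 3 and 2 reads over all libraries. No read was counted for Slc6a2, Slc6a3, Slc6a5, Slc6a7, Slc6a11, Slc6a12, Slc6a14, Slc6a15, Slc6a17, Slc6a18 or Slc6a21. A count of 0 over all 113422676 reads allows a level of up to 0.0264 CPM (3 counts), for counting error only.

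Levels were set against each other per kilobase of exon (RPKM, the union of a gene's annotated exons as its length). Slc3a2 led at 119 ± 5.31 RPKM in B220− and 132 ± 5.71 RPKM in B220+ cells. Slc1a5 at 74.8 ± 7.19 and 72.8 ± 4.69 RPKM, Slc38a2 at 52.3 ± 4.29 and 51 ± 8.09 RPKM, Slc36a1 at 34.1 ± 0.761 and 38 ± 3.13 RPKM and Slc38a10 at 27.1 ± 0.622 and 29.3 ± 0.321 RPKM followed. The ranges of these 5 over the 6 libraries did not overlap from one to the next. From Slc7a5 down to Slc6a8, each gene's range overlapped that of the next, so the order of adjacent genes is not resolved. Genes farther apart in this stretch could be separate: the lowest Slc7a5 library, at 5.22 RPKM, was above the highest of Slc36a4, at 4.64 RPKM. Slc7a1 stood 14th at 4.15 ± 0.0751 RPKM in B220− and 12th at 6.08 ± 0.565 RPKM in B220+ cells. Slc43a1 and Slc7a7 were last. With the longest coding transcript as the length, the first 3 genes kept their places and Slc7a6os moved from 7th to 4th. By that length Slc36a1 moved from 4th to 6th, below Slc38a10 (38.5 and 39.5 RPKM over both groups), and Slc38a1 had 29.2 in place of 12.3 RPKM.

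**Figure D3:**
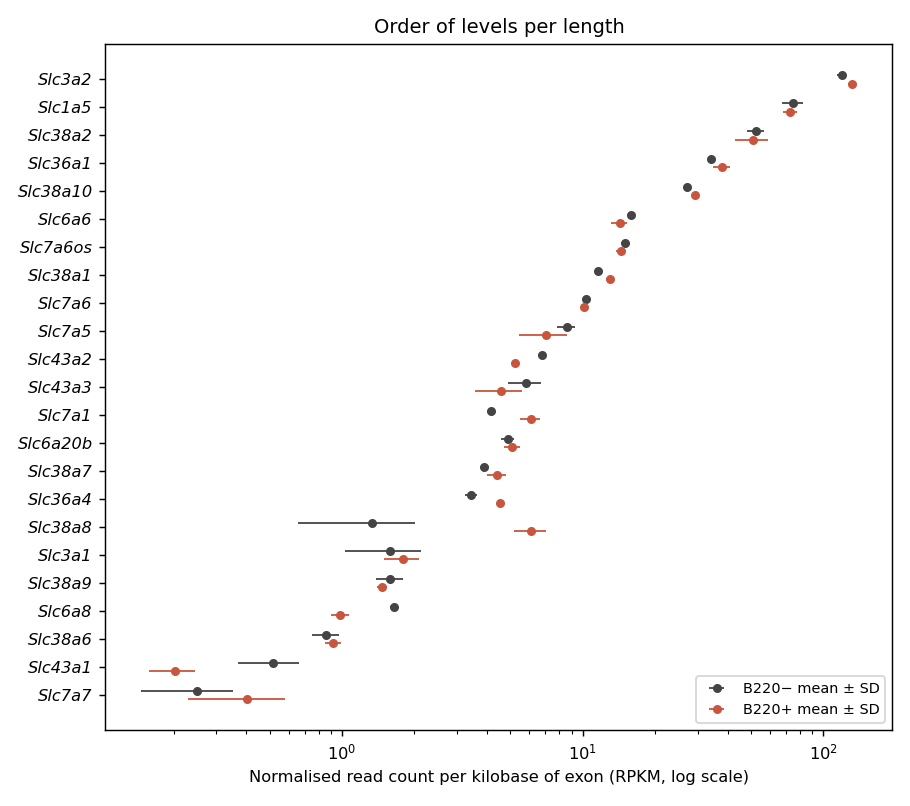
Normalised counts per kilobase of exon (RPKM, log scale) of the 23 tested members, with means and SD over 3 libraries for B220− (grey) and B220+ (red) cells. Genes are ordered by the mean of both groups, from Slc3a2 at the top to Slc7a7, and Slc38a8 has the widest gap between the groups.

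Genes that act with these carriers were read from 7 lists. Their counts stand beside 11.1% of all genes tested called by edgeR, and 17.5% with the replicate block. Whether any list differed from these shares was not tested. In the amino acid response list, the genes switched on through the transcription factor ATF4 when amino acids run short, 2 of 18 tested genes were called, both lower, and the median log2 fold change was 0.012. Asns, the asparagine synthetase, averaged 4.05 ± 1.06 CPM in the B220− group against 1.28 ± 0.179 CPM and was called lower (edgeR adjusted p = 0.00255, with a log2 difference of −1.63). Phgdh, the first enzyme of serine synthesis, fell 1.22-fold from 59.8 ± 4.69 CPM (edgeR adjusted p = 0.0277, but 0.113 when B220− replicate 1 was omitted and 0.0900, 0.0722 and 0.104 when B220+ replicate 1, 2 or 3 was). Atf4 itself stood at 511 ± 40 and 483 ± 46.4 CPM (edgeR adjusted p = 0.657). With the replicate block the list had 2 genes called higher, Atf3 (adjusted p = 1.03e-06) and Cebpb (adjusted p = 0.00992), and 3 lower, with Ppp1r15a as the third (adjusted p = 7.15e-05).

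Of 36 tested genes of amino acid sensing by mTORC1, 0 were called by edgeR (2, Castor1 and Tbc1d7, had an unadjusted p under 0.05, and DESeq2 called 0), with a median log2 fold change of −0.0037. Sesn3, a sestrin that restrains mTORC1, stood at 339 ± 16 and 318 ± 19.8 CPM. With the replicate block 1 gene was called higher, Rptor, a subunit of mTORC1 (99.7 ± 21.7 and 127 ± 11.6 CPM, adjusted p = 8.91e-04, against 0.266 without the block). Of 20 cytosolic aminoacyl-tRNA synthetases, which charge tRNAs with amino acids, 1 was called, with a median of −0.012. It was Wars, the tryptophan enzyme, which rose 1.28-fold from 67.9 ± 2.56 to 87 ± 2.21 CPM (edgeR adjusted p = 0.00432).

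Among enzymes of amino acid metabolism, 2 of 25 tested genes were called, both lower, with a median of 0.0059. Ass1, which makes argininosuccinate for arginine synthesis, fell 2.31-fold from 9.39 ± 1.40 to 4.12 ± 0.490 CPM (edgeR adjusted p = 9.52e-04). Got1, the cytosolic aspartate aminotransferase, fell 1.22-fold (edgeR adjusted p = 0.0289, but 0.0969 and 0.0946 when B220− replicate 1 or 3 was omitted and 0.113 and 0.103 when B220+ replicate 1 or 2 was). With the replicate block 4 were lower, the others being Odc1 (adjusted p = 0.0320), of polyamine synthesis, and Ahcy (adjusted p = 0.00539), of the methionine cycle. In the glutathione list, 2 of 9 tested genes were called, both lower, with a median of −0.092. Ggt1, which releases glutamate from glutathione outside cells, fell 2.91-fold from 4.14 ± 1.17 CPM (edgeR adjusted p = 0.00589), and Gpx1, a glutathione peroxidase, fell by 0.27 on the log2 scale (edgeR adjusted p = 0.0245, but 0.0722 and 0.0612 when B220− replicate 2 or 3 was omitted and 0.0923 and 0.0803 when B220+ replicate 1 or 2 was).

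Amino acid carriers of other families included 1 called gene among 16 tested, with a median of −0.10. The gene was Slc15a3, a lysosomal carrier of histidine and peptides, which averaged 2.76 ± 0.375 CPM in the B220− group against 0.861 ± 0.490 CPM. It fell 3.59-fold (edgeR adjusted p = 0.0128, and 0.0623 when B220+ replicate 2 was omitted). Of regulators of carrier transcription and abundance, 3 of 10 tested genes were higher and 2 lower, with a median of 0.20. Arrdc3, an arrestin-like protein, was called higher with the replicate block (adjusted p = 0.00507, against 0.214 without it). Max, the partner of MYC, rose 1.56-fold from 160 ± 21.5 CPM in B220− cells (edgeR adjusted p = 7.63e-04), while Myc stood at 104 ± 23 and 116 ± 30.4 CPM (edgeR adjusted p = 0.818). The ubiquitin ligases Nedd4l and Nedd4, of which Nedd4l is known to remove carriers from the surface, rose 1.86-fold and 1.25-fold (edgeR adjusted p = 0.0256 and 0.0181). The adjusted p of Nedd4l was 0.112, 0.102 and 0.0928 when B220− replicate 3, B220+ replicate 2 or B220+ replicate 3 was omitted, and that of Nedd4 was 0.103 and 0.0905 for the first 2 of these. Hif1a fell 1.32-fold (edgeR adjusted p = 0.00986, and 0.0516 when B220+ replicate 3 was omitted), and Txnip, an arrestin-like protein that lowers glucose uptake, fell 1.23-fold (edgeR adjusted p = 0.0117, and 0.0633 when B220+ replicate 2 was omitted).

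**Figure D4:**
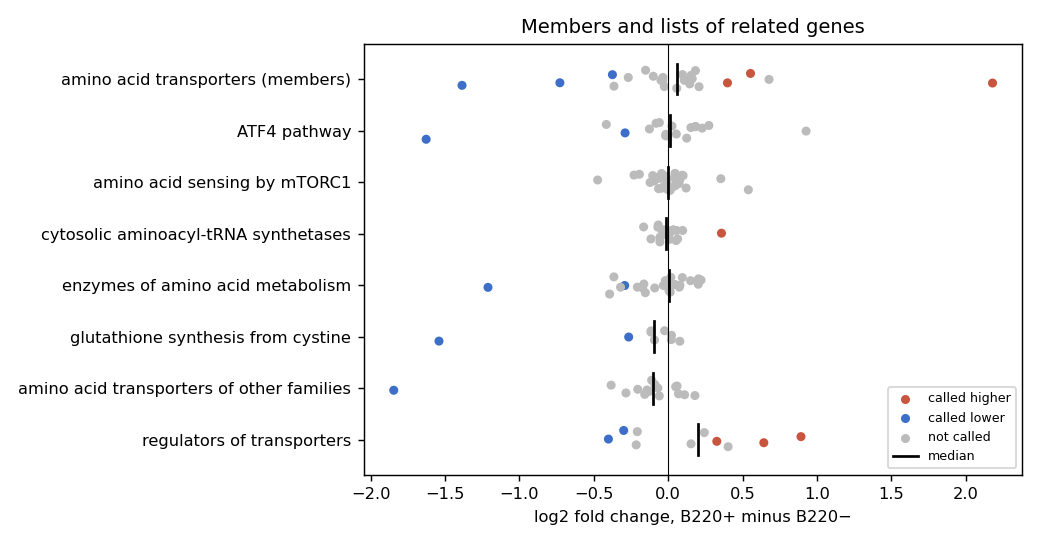
Log2 fold change (B220+ minus B220−) of each tested gene in the member set and in 7 lists of related genes, with called genes in colour and a black bar at each median. Slc38a8 at 2.18 is the point farthest to the right, and the medians lie between −0.10 and 0.20.

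The 6 calls among the members differed in how much they rested on single libraries. Slc7a1, Slc43a2 and Slc6a8 passed with every single library omitted. Slc38a8 passed in 5, Slc36a4 in 4 and Slc43a1 in 3 of them, with the values given above. All 6 were also called by DESeq2, without the filter on low counts, with the other scaling and with the replicate block.

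**Figure D5:**
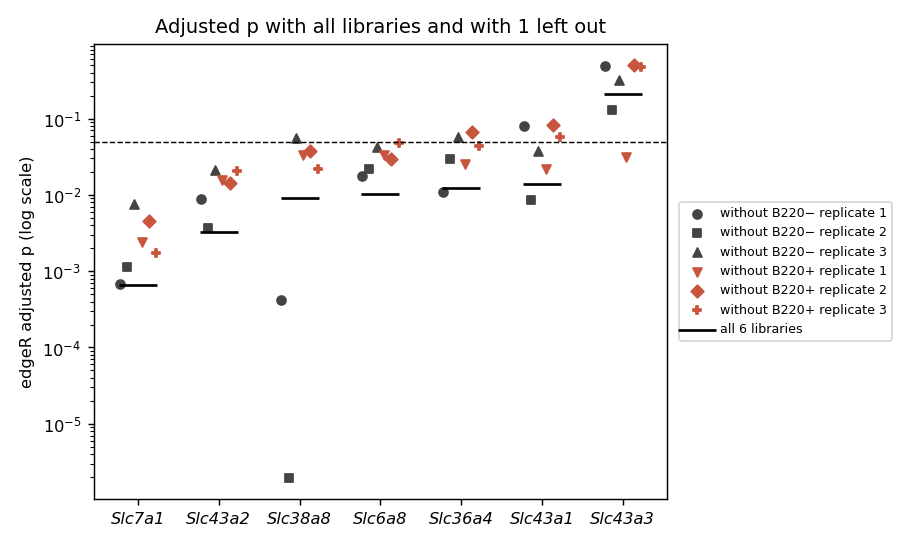
The edgeR adjusted p (log scale) of the 6 called members and Slc43a3 with all 6 libraries (black bar) and with each library left out in turn (symbols, grey for a B220− and red for a B220+ library), with a dashed line at 0.05. All symbols of Slc7a1, Slc43a2 and Slc6a8 lie under the line.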

How the data were processed

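Total RNA was sequenced from 6 samples after preparation with the NEBNext Ultra II Directional kit, per the labels' protocols. The deposited values are raw read counts per gene. The submitters' processing notes name featureCounts 1.6.3 and HISAT2 2.1.0, and also SAMtools 1.9, FastQC 0.11.7, Trimmomatic 0.38 and the build mm10. For options, strand setting and gene annotation the entry is: not given in the sources used here. All 64 members had the coordinates of GENCODE release M21, which gave the exonic lengths.

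Counts were tested with edgeR 4.0.16 (R 4.3.3): trimmed-mean scaling (factors 0.990 to 1.01), filterByExpr (minimum count 10, minimum total 15) and a robust quasi-likelihood fit on group alone. The SE was taken from the fold change and the F statistic. Adjusted p-values cover all 14722 genes tested. No pair of libraries within a group was a repeat deposit, since chi-square over degrees of freedom was 6.86 to 14.9. Deviations from group means correlated at 0.295, 0.246 and 0.272 between libraries with the same replicate number. Between others they correlated at −0.203 to −0.0675, negative values that follow in part from centring each group on its mean. The numbers were taken to pair libraries, an inference from the data. The main test and the fits with 1 library left out did not use this pairing. Alternatives were DESeq2 1.42.0, its scaling, no filter, the replicate block and each library left out.

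The rule for members uses no measured value, but it and the lists were chosen with earlier results of these data known. Named with values were members called by the test or the block, members with at least 10 CPM in a group, heavy chains, tested light chains and called list genes. A few genes that these rules cover are not reported here. Promoter sequences are from RefSeq. Of 240 list entries all were matched, 5 by synonym.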

Additional observations from a re-analysis of the deposited data

How the results depend on the processing

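All 23 tested members kept their side of the threshold with DESeq2 and with its scaling. Slc43a3 was the only one to change with no filter on low counts and with the replicate block, by passing. With the replicate block the count of genes called among all tested was 2569 in place of 1639, that of members called higher was 3 and lower 4, and no call among members was lost. When 1 library was left out, genes called ranged from 970 (without B220+ replicate 2) to 1789 (without B220− replicate 2), and were 1029 without B220− replicate 3. Members called higher ranged from 1 (without B220− replicate 3) to 3 and lower from 2 to 4. The median log2 fold change of the members ranged from −0.028 (without B220− replicate 1) to 0.098, so its sign is not settled, and 0 of the 6 called members changed sign. Without Slc7a6os, a choice made after seeing the data, 3 members were higher and 3 lower and the median was 0.077. Depth limits Slc43a1 (215 reads) and Slc7a7 (137 reads), and members with at most 34 reads did not pass the filter of the main test. Levels per kilobase depend on the length chosen.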

Other observations

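The name pattern also matched 3 genes annotated as antisense, which were left out of the members. Slc36a3os had 77 reads in B220− and 59 in B220+ libraries (1.61 ± 0.624 and 0.997 ± 0.209 CPM, edgeR adjusted p = 0.312). Slc36a1os had 3 reads and 1 read, and Slc6a19os had 1 and none.

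Slc43a1 and Slc43a3 lie 72985 bases apart on chromosome 2, and both had negative fold changes (−1.39 and −0.36). The first passed the edgeR test and the second did not (edgeR adjusted p = 0.212). Nearer to Slc43a1, Timm10 (8637 bases away) had a log2 fold change of −0.24 and Ube2l6 (28515 bases away) one of 0.34. Neither was called.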
